A study of Mus musculus with 8 samples.

Results

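The 9 genes described here, *Nfatc1*, *Nfatc2*, *Nfatc3*, *Egr1*, *Egr2*, *Egr3*, *Nr4a1*, *Nr4a2* and *Nr4a3*, encode transcription factors that a T cell switches on or activates when its antigen receptor is engaged. They were taken by name from the 13704 genes listed in 2 RNA-seq libraries of mouse Th17 cells that had been restimulated through CD3, the signalling part of the receptor. Both libraries came from C57BL/6 T cells. Naive CD4+ T cells were activated with antibodies to CD3 and CD28 and polarised over 3 days by TGF-β at 0.5 ng/ml together with IL-6 at 20 ng/ml, after which anti-CD3 was given again. The WT library came from wild type mice. The KO library came from mice labelled TRIM28fl/flxCD4cre, in which Cre under the *Cd4* promoter deletes loxP-flanked *Trim28* in T cells during their development in the thymus, before the cells were activated in culture. There was 1 library per genotype, and none of the differences below has a replicate check. Of the 9 genes, 8 were listed, and those 8 each had at least 10 reads over both libraries, the filter that 10881 genes passed. Both libraries were restimulated, so the counts give levels after stimulation and not induction, and the time between restimulation and RNA extraction is not given in the sources used here.

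Engagement of the receptor raises intracellular calcium, which activates the phosphatase calcineurin. Calcineurin removes phosphates from NFAT proteins, which then enter the nucleus, so NFAT activity is set largely by location and not by the amount of mRNA. EGR and NR4A genes are immediate-early genes, whose transcription starts within minutes from factors already present in the cell. EGR proteins are zinc finger factors, and *Egr2* and *Egr3* are known for restraining T cell activation, whereas NR4A proteins are orphan nuclear receptors known as a readout of receptor signal strength and for their part in tolerance.

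The RefSeq promoter table, which gives 250 bases before to 50 bases after a transcription start in the assembly GRCm38.p6, had a window for 6 of the 9 genes. The 3 NR4A promoters are shown because they share a feature that the choice of genes did not use. Each of the 3 windows held 4 matches, counted over both strands, to TGACG, the short form of the cAMP response element bound by CREB factors (a full element, TGACGTCA, would count as 2). At least 4 such matches stood in 76 of 32851 windows of all genes, or 0.231%, and at least 1 in 20.8%. The limit of 4 was taken from the 3 NR4A windows, and several motifs were scanned. The windows of all genes were not matched for base content, so these shares are a description and not a test. The *Nr4a1* sequence is the whole stretch before the start, chr15:101266596-101266845 on the plus strand, a start that lies within the annotated span of the gene. The *Nr4a2* sequence, chr2:57124110-57124126 on the minus strand, and the *Nr4a3* sequence, chr4:48045074-48045104 on the plus strand, are the stretches where matches lie closest together. The *Nr4a3* start used also lies within the annotated span of its gene, which begins at 48045078. Of the 250 bases before the start, 227 overlapped an annotated exon for *Nr4a3*, 146 for *Nr4a2* and 0 for *Nr4a1*. Exons of any gene on either strand were counted. The 250 bases of *Nr4a2* lie outside its own annotated span, which ends at 57124003. Capitals mark the TGACG sites, written as CGTCA where they lie on the opposite strand.
Nr4a1: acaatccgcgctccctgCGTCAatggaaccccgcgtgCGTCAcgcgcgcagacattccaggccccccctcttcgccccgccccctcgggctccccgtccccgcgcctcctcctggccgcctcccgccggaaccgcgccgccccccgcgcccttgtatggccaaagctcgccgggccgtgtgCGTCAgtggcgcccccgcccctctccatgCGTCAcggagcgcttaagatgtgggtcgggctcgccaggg
Nr4a2: TGACGgggccgcTGACG
Nr4a3: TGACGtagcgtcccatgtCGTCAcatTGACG

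Of the 5 *Egr2* windows, 4 held a CArG box, the site of serum response factor, which stood in 1.63% of all windows. In 3 of them, which overlap, it is the same box, with a TGACG site beside it. The box begins 72 bases before the first of these 3 starts. All 3 starts lie within the annotated span of *Egr2*, and 203, 202 and 142 of the 250 bases before them overlapped an annotated exon, counted in the same way. The stretch below runs from chr10:67537797-67537818 on the plus strand, with both matches in capitals.
Egr2: CCATATATGGgcagcgaCGTCA
A match is a description of the letters and does not show that a factor binds there. The NFAT core GGAAA, found in 61.3% of all windows, was present in at least 1 window of *Nfatc2*, *Nfatc3*, *Egr2* and *Nr4a2*.

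Sequencing gave 6.65 M (mega) assigned reads over 13078 genes in WT and 6.19 M over 12754 genes in KO, and 3 reads, taken as the lowest level the depth can show, were 0.451 and 0.485 CPM (reads of a gene per M assigned reads). *Trim28* itself had 4485 reads (674 CPM) in WT and 180 (29.1 CPM) in KO, a log2 fold change (log2FC, KO/WT, from counts scaled to library totals with 0.5 added) of -4.53. All 6 CD4 T cell markers were well represented, with summed levels of 4400 CPM in WT and 4130 CPM in KO. The summed level of 6 Th17 markers was lower, with 1670 and 528 CPM, and the part of this difference in the values below was not tested. Of 24 markers of B cells, myeloid and dendritic cells, NK, CD8 and mast cells, 14 were listed, with summed levels of 77.6 and 61.4 CPM. Most of this came from the 5 dendritic cell markers, all listed, with 55.3 and 46.2 CPM. All 4 B cell markers were listed, with 10.2 and 6.79 CPM. Of 8 macrophage or monocyte markers 2 were listed, with 3.46 and 2.75 CPM, and *Lyz2*, *Csf1r* and *Adgre1* were among the unlisted. The part of these cells in the values below was not tested. In bulk RNA, fewer cells expressing a gene and less RNA per cell cannot be told apart.

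A gene was counted as lower or higher when it differed at least 2-fold between the libraries, a rule of size only, since 1 library per genotype gives no estimate of spread. Of the 8 genes that passed the filter, *Nfatc2* and *Egr3* were at least 2-fold lower in KO and *Nr4a2* at least 2-fold higher, while 5 differed by less. Among all 10881 genes, 7.94% were at least 2-fold lower and 3.75% at least 2-fold higher. The median log2FC of the 8 genes was -0.35, beside -0.02 over all genes. Exact (Clopper-Pearson) 95% intervals cover counting error only, since 1 library per genotype gives no measure of variation between cultures. They may be too narrow even for that, since several reads may stem from 1 molecule. The intervals left out 0 for 4 of the 8 genes on the lower side and for 1 on the higher side. This is common in these libraries: 25.0% of all genes had such an interval below 0 and 23.5% above it. The plot of levels shows the spread of the 8 genes over more than 2 orders of magnitude, with the larger steps in *Nfatc2*, *Egr3* and *Nr4a2*.

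**Figure D1:**
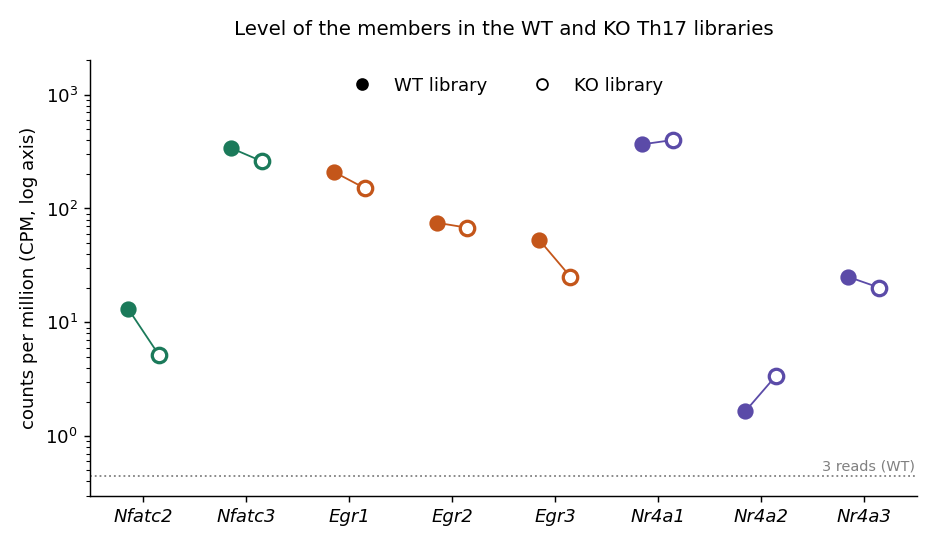
Level of each listed gene in CPM (log axis) in the WT library (filled circles) and the KO library (open circles), with 1 library each and the families in separate colours; the dotted line is 3 reads in the WT library. *Nr4a1*, with 366 and 400 CPM, and *Nfatc3*, with 340 and 260 CPM, lie at the top, and *Nr4a2*, with 1.65 and 3.40 CPM, at the bottom.

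Levels were compared between genes per length, as reads per kilobase of the longest curated RefSeq transcript per M reads (RPKM). *Nr4a1* had the highest level in both libraries, 148 RPKM in WT and 162 in KO, above 96% of listed genes (percentiles 96.4 and 96.1). It was followed in both libraries by *Egr1* (68.3 and 49.0 RPKM), *Nfatc3* (55.4 and 42.4), *Egr2* (25.3 and 22.8), *Egr3* (13.0 and 6.22) and *Nr4a3* (4.51 and 3.63). The lowest were *Nfatc2* (1.94 and 0.758) and *Nr4a2* (0.521 and 1.07). Neighbours in this order had exact Poisson intervals that did not overlap, except *Nr4a2* and *Nfatc2* in KO, whose intervals ran from 0.663 to 1.64 and from 0.518 to 1.07 RPKM.

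The deposited counts are headed as unique reads, and among genes with at least 10 reads those with several transcripts had fewer reads per length. The median over genes with at least 10 reads was 98.6 WT reads per kilobase for protein-coding genes with 1 curated coding transcript. It was 35.0 to 41.7 for genes with several, depending on the share of their exon bases that only 1 transcript uses. The share of genes listed went the other way, with 54.6% of genes with 1 transcript and 66.8% to 72.0% of those with several, of which 66.8% is the class of *Nfatc1*, with no base used by 1 transcript only. *Nr4a1* and *Egr1*, the 2 highest genes, have 1 curated coding transcript each. *Nfatc2* has 16 and *Nfatc1* 6, with no base used by only 1 of them, and *Nr4a2* has 2, with 14.8% of bases used by 1. *Nfatc3* has 3 transcripts with 1.62% of bases used by 1, and lay high in the order at 55.4 RPKM in WT, whereas *Nr4a3* has 2 with 72.4% and lay at 4.51 RPKM. *Myc*, with 4 transcripts and no such base, was listed in neither library. The part of transcript number in the order of levels was not tested. It is a property of the gene and the same for both libraries, unless they differ in transcript use. Related genes shared little sequence: of 36 pairs of the 9 genes, only *Egr2* and *Egr3* had any 36-base word in common (9 words).

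Among the NFAT genes, *Nfatc2* (NFAT1, the form abundant in resting T cells) had 88 reads in WT and 32 in KO, or 13.2 and 5.17 CPM. The KO library was 2.53-fold lower, a log2FC of -1.34 with a counting interval from -1.99 to -0.76. It lies on chromosome 2 of GRCm38 from 168476410 to 168601657 on the minus strand. *Nfatc3* (NFAT4), on chromosome 8 from 106058818 to 106130537, had 2258 and 1608 reads, so that log2FC was -0.39 (counting interval -0.48 to -0.29). It supplied 96.2% of the NFAT reads in WT (Wilson 95% interval from 95.4% to 96.9%) and 98.0% in KO (from 97.3% to 98.6%). Whether the number of transcripts per gene, which differs between the NFAT genes, bears on this share was not tested. The ratio of *Nfatc2* to *Nfatc3* reads, which does not depend on scaling, was 0.0390 in WT and 0.0199 in KO, a log2 change of -0.97 (exact interval from -1.61 to -0.36). *Nfatc1* (NFAT2, the form that activated T cells induce from its own promoter) lies on chromosome 18 from 80606205 to 80713071. It was listed in neither library, and no level or change can be given for it. With 1 NFAT gene unlisted and another at 88 and 32 reads, the NFAT total (2346 and 1640 reads, log2FC -0.41) is almost that of *Nfatc3*.

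**Figure D2:**
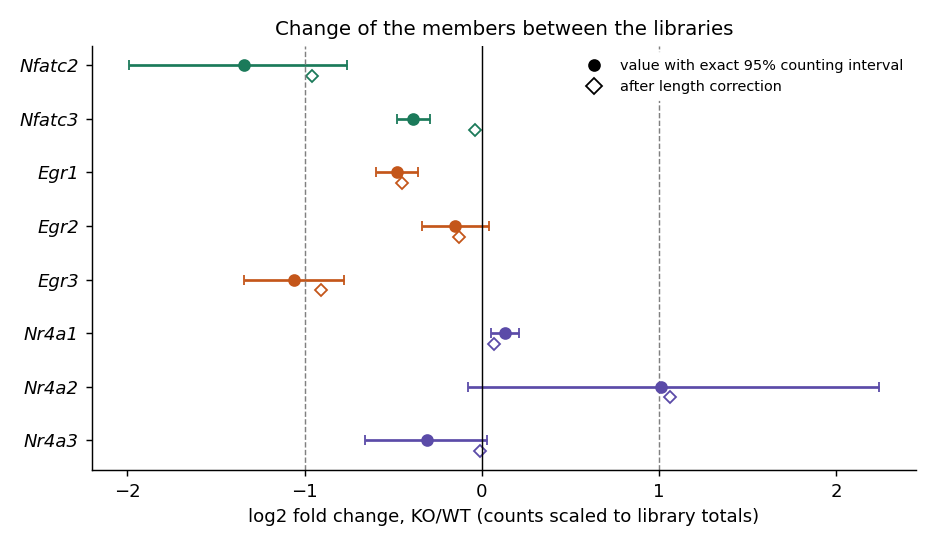
Log2FC (KO/WT) of each listed gene, with exact 95% intervals that cover counting error only (bars) and the value after correction for transcript length (open diamonds); dashed lines mark 2-fold. *Nfatc2* and *Egr3* lie beyond the lower line and return inside it after the correction, at -0.96 and -0.91, and the interval of *Nr4a2* includes 0.

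The 3 EGR genes differed from each other. *Egr1*, the most abundant, on chromosome 18 from 34861207 to 34864956, had 1395 reads in WT and 931 in KO (210 and 151 CPM), so that log2FC was -0.48 (counting interval -0.60 to -0.36). *Egr2*, on chromosome 10 from 67534469 to 67542188, had 499 and 419 reads (75.0 and 67.7 CPM), a log2FC of -0.15 whose interval, from -0.34 to 0.04, includes 0. *Egr3*, on chromosome 14 from 70077317 to 70082613 with 3 exons in its longest transcript, had 350 and 156 reads (52.6 and 25.2 CPM). It was 2.08-fold lower in KO, so that log2FC was -1.06 (counting interval -1.34 to -0.78), at percentile 7.26 of all genes. *Egr1* and *Egr3* were thus lower in the KO library by more than counting error, and *Egr3* by the most.

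The make-up of the EGR reads differed accordingly. *Egr1* supplied 62.2% of them in WT and 61.8% in KO. *Egr2* supplied 22.2% in WT (Wilson interval from 20.6% to 24.0%) and 27.8% in KO (from 25.6% to 30.1%), whereas *Egr3* supplied 15.6% (from 14.2% to 17.2%) and 10.4% (from 8.92% to 12.0%). For every read of *Egr3* there were 1.43 reads of *Egr2* in WT and 2.69 in KO, a log2 change of the ratio of 0.91 (exact interval from 0.57 to 1.25). The ratio of *Egr1* to *Egr3* differed by 0.58 on the log2 scale (from 0.28 to 0.89) and that of *Egr1* to *Egr2* by -0.33 (from -0.56 to -0.10). These are 3 of the 7 pairs within families that were compared, and their intervals cover counting error only.

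**Figure D3:**
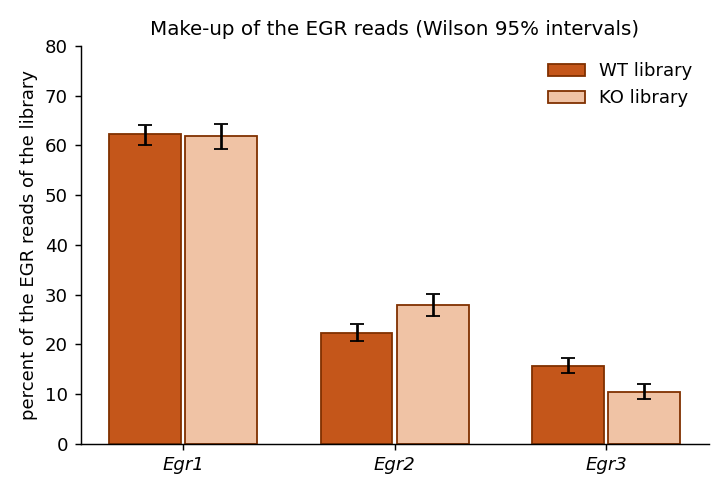
Percent of all *Egr1*, *Egr2* and *Egr3* reads of a library that each gene supplied, in WT (dark bars) and KO (light bars), with Wilson 95% intervals. *Egr1* takes the same part in both libraries within these intervals, and the bars of *Egr2* and *Egr3* move in opposite directions.

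In the NR4A family the dominant gene barely differed. *Nr4a1* (Nur77), on chromosome 15 from 101253902 to 101274795, had 2431 reads in WT and 2475 in KO (366 and 400 CPM), so that log2FC was 0.13 (counting interval 0.05 to 0.21). *Nr4a3* (NOR-1), on chromosome 4 from 48045078 to 48086447, had 167 and 125 reads (25.1 and 20.2 CPM), a log2FC of -0.31 with an interval from -0.66 to 0.03. *Nr4a2* (Nurr1), on chromosome 2 from 57106830 to 57124003, had only 11 and 21 reads (1.65 and 3.40 CPM). Its log2FC of 1.01 has an interval from -0.08 to 2.24, so a difference in *Nr4a2* was not detectable at this depth. *Nr4a1* supplied 93.2% of the NR4A reads in WT and 94.4% in KO. WT levels of the 3 NR4A genes, each with 4 TGACG sites in its window, ran from 0.521 to 148 RPKM. A link between the sites and the levels was not tested. The ratio of *Nr4a1* to *Nr4a3* reads was 14.6 in WT and 19.8 in KO, a log2 change of 0.44 (interval from 0.09 to 0.80). These genes differ in transcript length. After correction for it, their log2FC values lay close together, at 0.07 for *Nr4a1* and -0.01 for *Nr4a3*. The ratio of *Nr4a2* to *Nr4a3* reads was 0.0659 and 0.168, a change of 1.35 (from 0.17 to 2.60) that rests on the few *Nr4a2* reads. That of *Nr4a1* to *Nr4a2* changed by -0.91 with an interval from -2.11 to 0.21.

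Summed over families, EGR reads numbered 2244 in WT and 1506 in KO (337 and 243 CPM, log2FC -0.47, interval from -0.57 to -0.38). NR4A reads numbered 2609 and 2621 (392 and 424 CPM, log2FC 0.11, interval from 0.03 to 0.19). The 2 sums lay on opposite sides of 0, beyond counting error, and the other scalings tried moved values by at most 0.0194 on the log2 scale. The NR4A sum lay close to 0, and *Nr4a1* moved from 0.13 to 0.07 with the length correction and to 0.06 with the GC correction. With an assumed coefficient of variation of 0.2, intervals of both *Egr1* (-1.29 to 0.33) and *Nr4a1* (-0.67 to 0.93) included 0. Most of each sum comes from 1 gene, *Egr1* or *Nr4a1*.

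Fold changes of all genes varied with transcript length, which bears on the longer of the 8 genes. Longer transcripts had lower values in KO (Spearman's rho -0.40 over 10824 genes, a description across genes that share both libraries). When genes were ordered by length and split into 10 groups of equal size, the median log2FC was 0.29 in the group with the shortest transcripts and -0.44 in that with the longest. With a loess curve on length taken off, *Nfatc3* (6131 bases) was at -0.04 and *Nr4a3* (5569 bases) at -0.01. *Nfatc2* (6828 bases) was at -0.96 and *Egr3* (4053 bases) at -0.91, so neither remained past 2-fold. *Egr1* (3072 bases) was at -0.45, *Egr2* at -0.13, *Nr4a1* at 0.07 and *Nr4a2* at 1.06. The part of library preparation or RNA quality in the length trend was not tested.

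**Figure D4:**
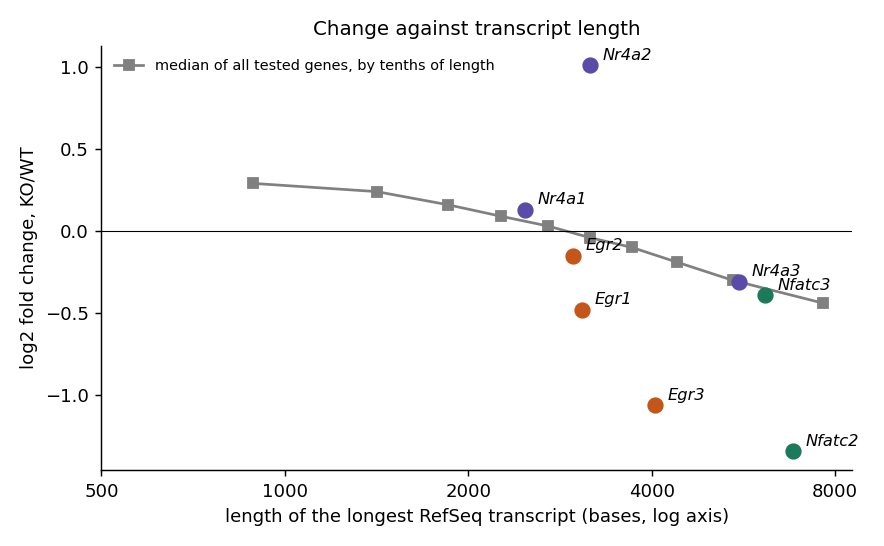
Log2FC (KO/WT) of each listed gene against the length of its longest curated RefSeq transcript in bases (log axis), with the medians of all tested genes in 10 groups by length (grey squares). *Nfatc3*, *Nr4a3* and *Nr4a1* lie near the grey line, *Egr1*, *Egr3* and *Nfatc2* below it and *Nr4a2* above it.

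Of the calcium, calcineurin and NFAT machinery, 28 of 32 genes passed the filter, of which 3 were at least 2-fold lower (10.7%, beside 7.94% of all genes), 0 higher (beside 3.75%) and 25 within 2-fold, with a median log2FC of -0.06. *Ppp3cb*, a catalytic subunit of calcineurin, had 867 and 806 reads (130 CPM in both libraries), and *Ppp3r1*, its regulatory subunit, had 1058 and 932 reads (log2FC -0.08, counting interval -0.21 to 0.05). The other catalytic subunits were lower in KO. *Ppp3ca* had 173 and 88 reads, so that log2FC was -0.87 (counting interval -1.26 to -0.49), and -0.62 after the length correction. *Ppp3cc* had 972 and 724 reads, a log2FC of -0.32 (counting interval -0.46 to -0.18), and -0.37 after the correction. The 3 genes past 2-fold rested on few reads. *Rcan1*, a calcineurin inhibitor that NFAT itself induces, had 18 and 7 reads (log2FC -1.20, counting interval -2.76 to 0.07), and *Homer3*, which competes with calcineurin for NFAT, had 10 and 4. *Nfat5*, a relative of NFAT that responds to osmotic stress, had 12 reads in WT and 0 in KO. With the floor of 3 reads in place of 0 it would be 3.72-fold lower. The upper end of its counting interval was a log2FC of -1.37, a smaller change. *Nfatc4* was listed in neither library.

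Of the partners and upstream factors of EGR and NR4A genes, 20 of 23 passed the filter, of which 3 were at least 2-fold lower (15.0%, beside 7.94% of all genes) and 1 higher (5.0%, beside 3.75%), with a median of -0.28. The NAB proteins, corepressors that bind EGR proteins, lay on opposite sides: *Nab1* had 798 and 495 reads (log2FC -0.58, counting interval -0.75 to -0.42) and *Nab2*, itself an EGR target, 150 and 203 (0.54, from 0.23 to 0.86). *Srf*, which binds CArG boxes such as the one in *Egr2*, had 1413 and 1532 reads (log2FC 0.22). *Elk4*, a partner of SRF, was 2.42-fold lower in KO with 375 and 144 reads (log2FC -1.27). *Mef2d* and *Mef2a*, whose products control *Nr4a1* in T cells, had 1204 and 508 reads and 250 and 109 reads, log2FC values of -1.14 and -1.09, beside a log2FC of 0.13 for *Nr4a1*. After the length correction *Elk4* was at -1.05, *Mef2d* at -0.85 and *Mef2a* at -0.78. *Nab1* was then at -0.32 and *Nab2* at 0.49. *Mkl2*, the 1 gene counted as higher, had 3 and 7 reads and an interval that includes 0. *Egr4* had 6 reads in each library.

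Of 31 other immediate-early genes, 29 passed the filter, 1 was at least 2-fold lower (3.45%, beside 7.94% of all genes) and 1 higher (3.45%, beside 3.75%), with a median of -0.19. *Rgs1*, which dampens chemokine receptor signalling, had 1006 and 372 reads (log2FC -1.33, counting interval -1.51 to -1.16), and *Gadd45b*, a stress sensor, had 62 and 119 reads (1.04, from 0.59 to 1.51). *Gadd45g*, its relative, was just under 2-fold with 155 and 288 reads. After the length correction *Rgs1* was at -1.56 and *Gadd45b* at 0.80. The activation marker *Cd69* had 299 and 261 reads (log2FC -0.09, counting interval -0.34 to 0.15).

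**Figure D5:**
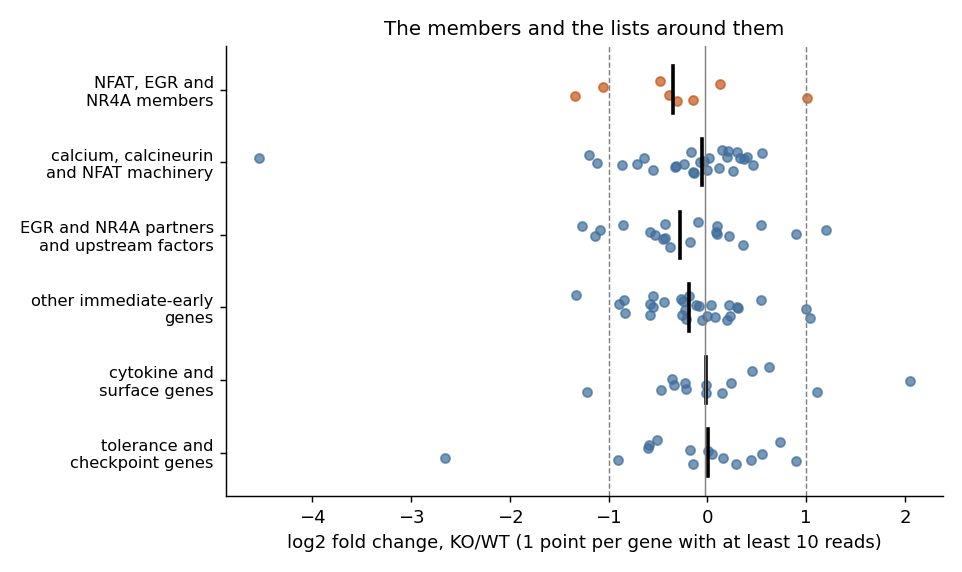
Log2FC (KO/WT) of the 8 listed members (orange) and of the genes of 5 lists (blue), 1 point per gene with at least 10 reads; black bars are list medians, the grey line is the median of all tested genes and dashed lines mark 2-fold. The point at -4.54 is *Nfat5*, with 12 and 0 reads, and depends on the 0.5 added to each count.

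The genes whose levels lay closest to 2 of the members in these 2 libraries, by distance in log2(CPM + 0.5), were found over all tested genes. For *Nfatc2*, the member with the largest change among those with at least 50 reads, they were *Fnip2* (83 and 30 reads), *Tsc22d3* (94 and 34) and *Rps6ka5* (88 and 36), and 0 genes lay within a distance of 0.1. For *Nr4a1*, the member with the highest level, they were *Rbbp4* (2415 and 2443 reads), *Abcf1* (2478 and 2459) and *Cdc37* (2387 and 2506), and 22 genes lay within 0.1. A likeness over 2 libraries is easily met and describes only these values.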

How the data were processed

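RNA from 2 Th17 cultures was sequenced, and the authors mapped the reads to mm10 with SOAP2, as their methods state. The deposited values are whole-number counts per gene, headed as unique reads and not normalized. In each table they sum to the total in its heading. Only genes with reads have an entry, and a gene found in 1 table was set to 0 in the other. The counting program and annotation for these tables are not given in the sources used here. The submitters' processing notes name HTSeq without a role. The 6 ChIP-seq and input samples were not analysed here.

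Counts were scaled to library totals, 0.5 was added to each, and log2 fold changes (KO/WT) were taken where both libraries together held at least 10 reads. With 1 library per genotype no significance test was made, because edgeR has no residual degrees of freedom. A gene was counted past 2-fold, and intervals are exact or Wilson 95% intervals of the reads (SciPy 1.17.1). RefSeq (GRCm38.p6) gave positions and lengths. Of the gene names, 12841 matched a symbol, 804 a unique older symbol and 59 none. GC content came from GENCODE transcripts. The members, lists, motifs and rules were chosen with earlier results of these data known.

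Named genes were the 9 members, *Trim28*, 10 genes of the pathways fixed by name, genes at least 2-fold changed with at least 50 reads in the higher library (up to 4 per direction and list), and the nearest patterns. *Homer3*, *Mkl2*, *Gadd45g*, *Cd69*, *Xcl1*, *Entpd1* and other genes outside this rule were named after their values were seen. Alternatives were TMM factors (edgeR 4.0.16), DESeq2 1.42.0 size factors, upper-quartile scaling, 5 added to each count, 3 other filters, loess corrections (statsmodels 0.14.6, span 0.3) for length and GC content, a 1.5-fold limit, another transcript length, and assumed variation between cultures. The calculations were tested on simulated data. R 4.3.3 and Python 3.11.15 were used.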

Additional observations from a re-analysis of the deposited data

How the results depend on the processing

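The alternatives were changed 1 at a time. The 8 listed members gave 71 values under them, of which 69 stayed within the main counting interval. *Nfatc3* left its interval with the length correction (-0.04) and the GC correction (-0.29), and 0 values reversed a change past 2-fold. The number of members at least 2-fold lower was 2 in every setting except the length correction, where it was 0. The number higher was 1, but 0 with 5 added to each count and 0 with at least 50 reads required. The median of -0.35 stayed negative and moved most with the length correction, to -0.09. When cultures were assumed to vary with a coefficient of 0.2, intervals left out 0 for 2 members in place of 5, *Nfatc2* and *Egr3*, and with 0.4 for 0. These intervals used values without the length correction, -1.34 for *Nfatc2* and -1.06 for *Egr3*. With the correction the values were -0.96 and -0.91, and no such intervals were computed for them. Over all genes, 864 lower and 408 higher became 551 and 262 with 5 added, 2012 and 1152 with at least 1 read, 373 and 167 with at least 50 reads, and 1927 and 1170 at 1.5-fold. The 2 read minimums change how many genes are tested, and 5 added or a 1.5-fold limit are applied to the same 10881 genes. Other causes were not tested. The order of levels was the same with the mean transcript length in both libraries. Of 100 counts over the other lists, 76 stayed within 1.5 times.

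No paired analysis was possible because there was 1 library per genotype. For the same reason no library was left out in turn, and depth limits statements on *Nr4a2*, *Rcan1* and other genes with few reads.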

Other observations

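Of 18 activation-induced cytokine and surface genes, 14 passed the filter, of which 1 was at least 2-fold lower (7.14%, beside 7.94% of all genes) and 2 higher (14.3%, beside 3.75%), with a median log2 fold change of -0.01. *Tnfsf8* (CD30 ligand) had 256 and 102 reads (-1.22, interval from -1.57 to -0.89), and *Ccl3*, a chemokine, had 57 and 115 (1.11, from 0.65 to 1.60). *Xcl1*, a chemokine with 9 and 36 reads, had a log2 fold change of 2.05 (from 1.02 to 3.34). After the length correction *Ccl3* was at 0.82. *Il2*, the classical NFAT target, had 22 and 16 reads and an interval from -1.38 to 0.64, and *Cd40lg*, another, had 247 and 228 reads and an interval from -0.28 to 0.25.

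Of 19 tolerance and checkpoint genes linked to these factors, 15 passed the filter, with a median of 0.01. At least 2-fold lower was 1 (6.67%, beside 7.94% of all genes) and higher 0 (beside 3.75%). Counting intervals lay below 0 for 4 of the 15 and above 0 for 5, beside 25.0% and 23.5% of all genes. The number higher was 1 with the length correction and 1 with the GC correction. *Entpd1* (CD39, which breaks down extracellular ATP) had 30 and 4 reads (log2FC -2.66, counting interval -4.77 to -1.30). Within 2-fold but beyond counting error, *Cblb*, an E3 ubiquitin ligase that EGR factors control, had 3221 and 1594 reads (-0.91, and -0.56 after the length correction). *Dgkz* had 365 and 225 (-0.59, and -0.44 after the correction) and *Tox* 325 and 212 (-0.51, and -0.37). On the higher side, *Nrp1* had 135 and 235 reads (0.90, interval from 0.59 to 1.22, and 1.23 after the length correction). *Cd200* had 878 and 1359 reads (0.73, and 0.65 after the correction), *Lag3* 1454 and 1975 (0.55, and 0.41) and *Pdcd1* 608 and 766 (0.44, and 0.29). These are values of 2 libraries, and no cause was tested.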
